A study of Mus musculus with 8 samples.

Results

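Gas6, Pros1, Mertk, Axl, Msr1, Stab1 and Elmo1 are 7 genes through which phagocytes recognise and take up dying cells and other particles. Their regulatory activity was read from H3K27ac, an acetylated form of histone H3 found at active enhancers and promoters, in microglia of wild-type mice (WT) and of mice lacking Grn (GrnKO), the gene of the lysosomal and secreted protein progranulin. Members were the regions whose gene name in the deposited table was one of these 7 symbols, which gave 212 of 129304 regions, each 800 bp wide. Elmo1 held 107 of them, Mertk 45, Msr1 17, Gas6 13, Stab1 12, Pros1 10 and Axl 8, and 112 of the 212 overlapped another region of the set. The table gives each region to the gene with the nearest start, and which gene a distal region acts on was not tested.

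The mice were C57BL/6, aged 2 years, of genotype WT or GrnKO; the labels name no treatment and do not describe the Grn allele. Nuclei came from frozen hemibrains and were sorted as PU.1+ (a transcription factor of myeloid cells), OLIG2- and NEUN-. Each replicate pooled the nuclei of 2 mice, and each genotype had 2 replicates, each with an H3K27ac library and an input library of sonicated chromatin without immunoprecipitation. With 2 pools per genotype, p-values rest on the spread between pools, partly shared across all features by the fit, not on that between single mice.

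Cells that die in the brain expose phosphatidylserine, a lipid that healthy cells keep on the inner face of the membrane. GAS6 and protein S (Pros1) bind this lipid and bridge it to the receptor tyrosine kinases MERTK and AXL, which with TYRO3 form the TAM family. MSR1 and STAB1 are scavenger receptors that bind modified lipoproteins, and STAB1 also binds phosphatidylserine. ELMO1 works inside the cell, where it joins DOCK proteins to switch on the GTPase RAC1 and drive the membrane around the particle. Microglia are known to carry MERTK at rest, and AXL is known as a receptor that rises in activated microglia.

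The sequences of 4 promoters are shown because the results below give the start sites of these genes beside their distal regions. Each is the stretch of 250 bases before the start site, 5′ to 3′ on the gene's strand, from RefSeq on GRCm38.p6, and capitals mark GC boxes (GGGCGG on either strand). The windows are Gas6 chr8:13494536-13494785 (minus strand), Mertk chr2:128698665-128698914 (plus strand), Axl chr7:25788734-25788983 (minus strand) and Elmo1 chr13:20090257-20090506 (plus strand).
Gas6: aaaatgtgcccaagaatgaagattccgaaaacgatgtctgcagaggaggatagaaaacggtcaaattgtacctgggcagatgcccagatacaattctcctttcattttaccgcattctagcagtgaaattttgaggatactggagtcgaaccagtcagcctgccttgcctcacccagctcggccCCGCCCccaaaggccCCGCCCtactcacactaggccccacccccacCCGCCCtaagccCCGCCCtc
Mertk: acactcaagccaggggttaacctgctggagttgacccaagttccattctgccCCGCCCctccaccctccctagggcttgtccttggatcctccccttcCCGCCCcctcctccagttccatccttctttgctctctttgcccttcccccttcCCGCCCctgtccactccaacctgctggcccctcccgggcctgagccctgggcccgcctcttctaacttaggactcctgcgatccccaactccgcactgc
Axl: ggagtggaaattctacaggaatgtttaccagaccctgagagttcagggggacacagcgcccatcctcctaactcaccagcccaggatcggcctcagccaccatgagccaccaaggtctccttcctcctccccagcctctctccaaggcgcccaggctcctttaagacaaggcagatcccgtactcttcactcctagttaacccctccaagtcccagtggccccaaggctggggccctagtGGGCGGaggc
Elmo1: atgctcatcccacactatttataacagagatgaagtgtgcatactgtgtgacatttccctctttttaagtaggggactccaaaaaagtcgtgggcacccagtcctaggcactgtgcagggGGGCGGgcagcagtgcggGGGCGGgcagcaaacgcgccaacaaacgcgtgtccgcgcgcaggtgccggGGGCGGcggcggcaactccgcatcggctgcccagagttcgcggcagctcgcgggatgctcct

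Promoters were matched for 6 of the 7 genes, not for Msr1, and Elmo1 has a second one at the start of a shorter transcript. The windows searched for motifs ran from 250 bases before to 50 bases after the start. No match on either strand was found in the 7 promoters for CACGTG (the E-box, in 7.15% of 32851 promoters of the table), TCACGTGA (its longer form bound by lysosomal regulators, 0.974%), TGANTCA (AP-1, 7.81%), the interferon-response motif (3.44%) or AGGTCA (nuclear receptor, 16.3%). The PU.1 motif GAGGAAGT, in 3.2% of all promoters, occurred once, 38 bases after the first Elmo1 start. The GC box, a motif added after the sequences were seen, was present in 35.7% of all promoters and occurred 4 times in the Gas6, 4 times in the Mertk, 5 times in the Pros1, 3 times in the first Elmo1 and 2 times in the Axl window. In the Gas6 window all 4 lay within 66 bases of the start. These matches describe letters only.

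The H3K27ac libraries held 15491642.5 to 20030832 tags and the inputs 4078179 to 14415969 tags. WT replicate 1 had 49.4% of its tags in the listed regions, against 63.3% to 65.7% in the other 3 libraries. Values below are tags scaled to 10000000 per library and then by TMM, which corrects for this difference (TMM scales libraries so that most regions do not change). At Grn itself the region over the start site held 357 and 300.1 tags in WT and 0 and 0 in GrnKO, so the libraries matched their labels. Regions within 1000 bp of the starts of 8 microglial marker genes summed to 7871 and 9153 tags in WT and 6635 and 6992 in GrnKO, while those of neurons (3 of 7 genes with such a region) summed to at most 6.23 tags and those of oligodendrocytes (5 of 6) to 66.3 to 107, almost all of it at Mbp and Mog. Astrocyte markers (4 of 6) gave 190 to 223 tags, mostly at Slc1a3, and border macrophage markers (4 of 6, Mrc1 first) gave 301 and 349 tags in WT and 368 and 283 in GrnKO. None of 3 monocyte markers had a start region. Flt1, the only one of 5 endothelial markers with a start region, had 12.5 and 31.4 tags in WT and 144 and 144 in GrnKO, and S100a8, the only one of 3 neutrophil markers, had 0 and 5.24 against 20.4 and 18.7. Both were higher in both GrnKO libraries, while the microglial sum was lower in both. The part of these differences in the results below was not tested. A change in the number of cells of a type and a change in signal per cell cannot be told apart in these pools.

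Of the 212 regions, 177 had enough tags to be tested, and 7 rose and 2 fell in GrnKO (limma on log2 values, Benjamini-Hochberg adjusted p under 0.05 over all 80728 tested regions). Over all tested regions 9.71% passed, with 6.8% higher and 2.92% lower, so a smaller share of the members changed (5.08%). Both GrnKO libraries lay above both WT libraries in 41 member regions (23.2%, against 27% of all regions) and below in 57 (32.2%, against 25.6%). The median log2 change of the 177 regions was -0.082, against -0.0020 for all tested regions. On tags summed per gene, 1 of the 7 genes rose (Gas6), 1 fell (Elmo1) and 5 did not pass, where 14.4% of 15380 genes passed, 9.54% as higher and 4.88% as lower. Read against these shares, 9 of 177 regions and 2 of 7 genes are no result about the set as a whole. With the authors' scaling, which moved the median of all tested regions to 0.22, 95.2% of called regions were higher in place of 70.0%, and 1 of the called member regions was lower in place of 2. Without GrnKO replicate 1 only 1 of the 183 member regions then tested passed and without GrnKO replicate 2 only 2 of 179, against 22 of 183 without WT replicate 1 and 32 of 184 without WT replicate 2.

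**Figure D1:**
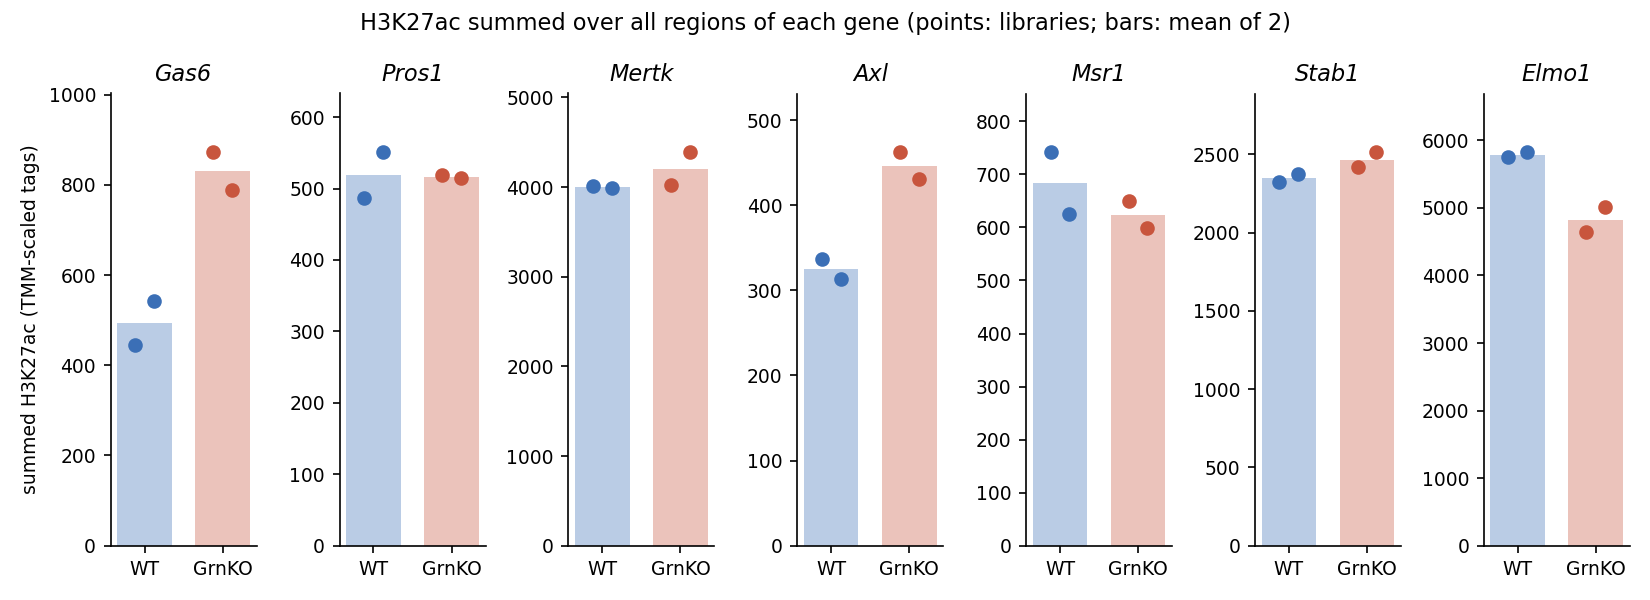
H3K27ac summed over all regions of each gene, in TMM-scaled tags on a linear axis from 0; points are the 2 libraries of each genotype and bars their mean. Gas6 and Axl libraries of GrnKO lie above both WT libraries, with Gas6 at 872 and 789 against 444 and 542. Those of Mertk and Stab1 also lie above, by small margins, and the Elmo1 libraries of GrnKO lie below.

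The levels differed widely between genes. At the region over the start site, where every gene is represented by 800 bp, the WT mean was highest at Stab1 (278 tags), followed by Mertk (213), Elmo1 (193), Pros1 (126), Axl (57.3), Msr1 (27.8) and Gas6 (20.98). The WT values of each gene in this order stood clear of the next, except that those of Msr1 (28.5 and 26.98) overlapped those of Gas6 (14.5 and 27.5). In GrnKO the means were 241 tags for Stab1, 226 for Mertk, 175 for Elmo1, 102 for Pros1, 82.7 for Axl, 35.1 for Gas6 and 19.7 for Msr1, so that Gas6 and Msr1 changed places. None of these 7 start regions differed between genotypes past the threshold. In the authors' scaling the inputs at these 7 regions held at most 9.62 tags.

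Gas6, the bridging ligand of the TAM receptors, had the clearest change of the 7 genes. Summed over its 13 regions, H3K27ac was 444 and 542 tags in WT and 872 and 789 in GrnKO. Both GrnKO libraries stood well above both WT libraries, and the fitted value was 1.69 times as high (a log2 change of 0.76 with SE 0.14, limma adjusted p = 0.00154). The call was kept under every alternative run on this sum, with log2 changes of 0.61 to 0.95, including each of the 4 fits that left out 1 library and the authors' own scaling.

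Most of the Gas6 difference lay in the intergenic regions upstream of the gene. The 5 intergenic regions together held 308 and 347 tags in WT and 588 and 594 in GrnKO, which was 64.0% to 75.3% of the tags of the gene in each library. The strongest Gas6 region (by the mean of the 4 libraries, as for each gene below), 9.5 kb upstream of the start (chr8:13503656-13504456), held 154 and 166 tags in WT and 264 and 285 in GrnKO. It rose by 0.78 on the log2 scale (SE 0.16, limma adjusted p = 0.00492). The region 9.9 kb upstream, which overlaps it and shares its reads, held 122 and 144 tags in WT and 202 and 229 in GrnKO (log2 change 0.70, SE 0.18, limma adjusted p = 0.0199). Another region, 6.9 kb upstream in an LTR element of the RMER19C family (chr8:13500986-13501786), was weak in WT with 20.3 and 11.5 tags and held 55.4 and 34.8 in GrnKO (log2 change 1.46, SE 0.42, limma adjusted p = 0.0339). None of the 3 calls held without GrnKO replicate 1 (limma adjusted p 0.0581 to 0.536) or without GrnKO replicate 2 (0.0674 to 0.309). Inputs in these 3 regions held at most 7.63 tags in the authors' scaling.

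At the Gas6 start the signal was weak. The promoter whose sequence is given above held 14.5 and 27.5 tags in WT and 43.8 and 26.3 in GrnKO (log2 change 0.74, SE 0.43, limma adjusted p = 0.315). GrnKO replicate 2 lay between the WT libraries, and the region passed without WT replicate 2 (log2 change 1.20, limma adjusted p = 0.0477), where without WT replicate 1 the change was 0.30. The 3 regions within 1000 bp of the start summed to 58.1 and 96.7 tags in WT and 172 and 104 in GrnKO. Their mean was 1.79 times as high in GrnKO, with no overlap, beside 1.81 times for the 5 intergenic regions. The 4 regions of intron 2 of 14 held 77.6 and 98.8 tags in WT and 100.1 and 85.8 in GrnKO, which overlap. Of the 12 Gas6 regions tested, 10 had a positive log2 change, with a median of 0.74.

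**Figure D2:**
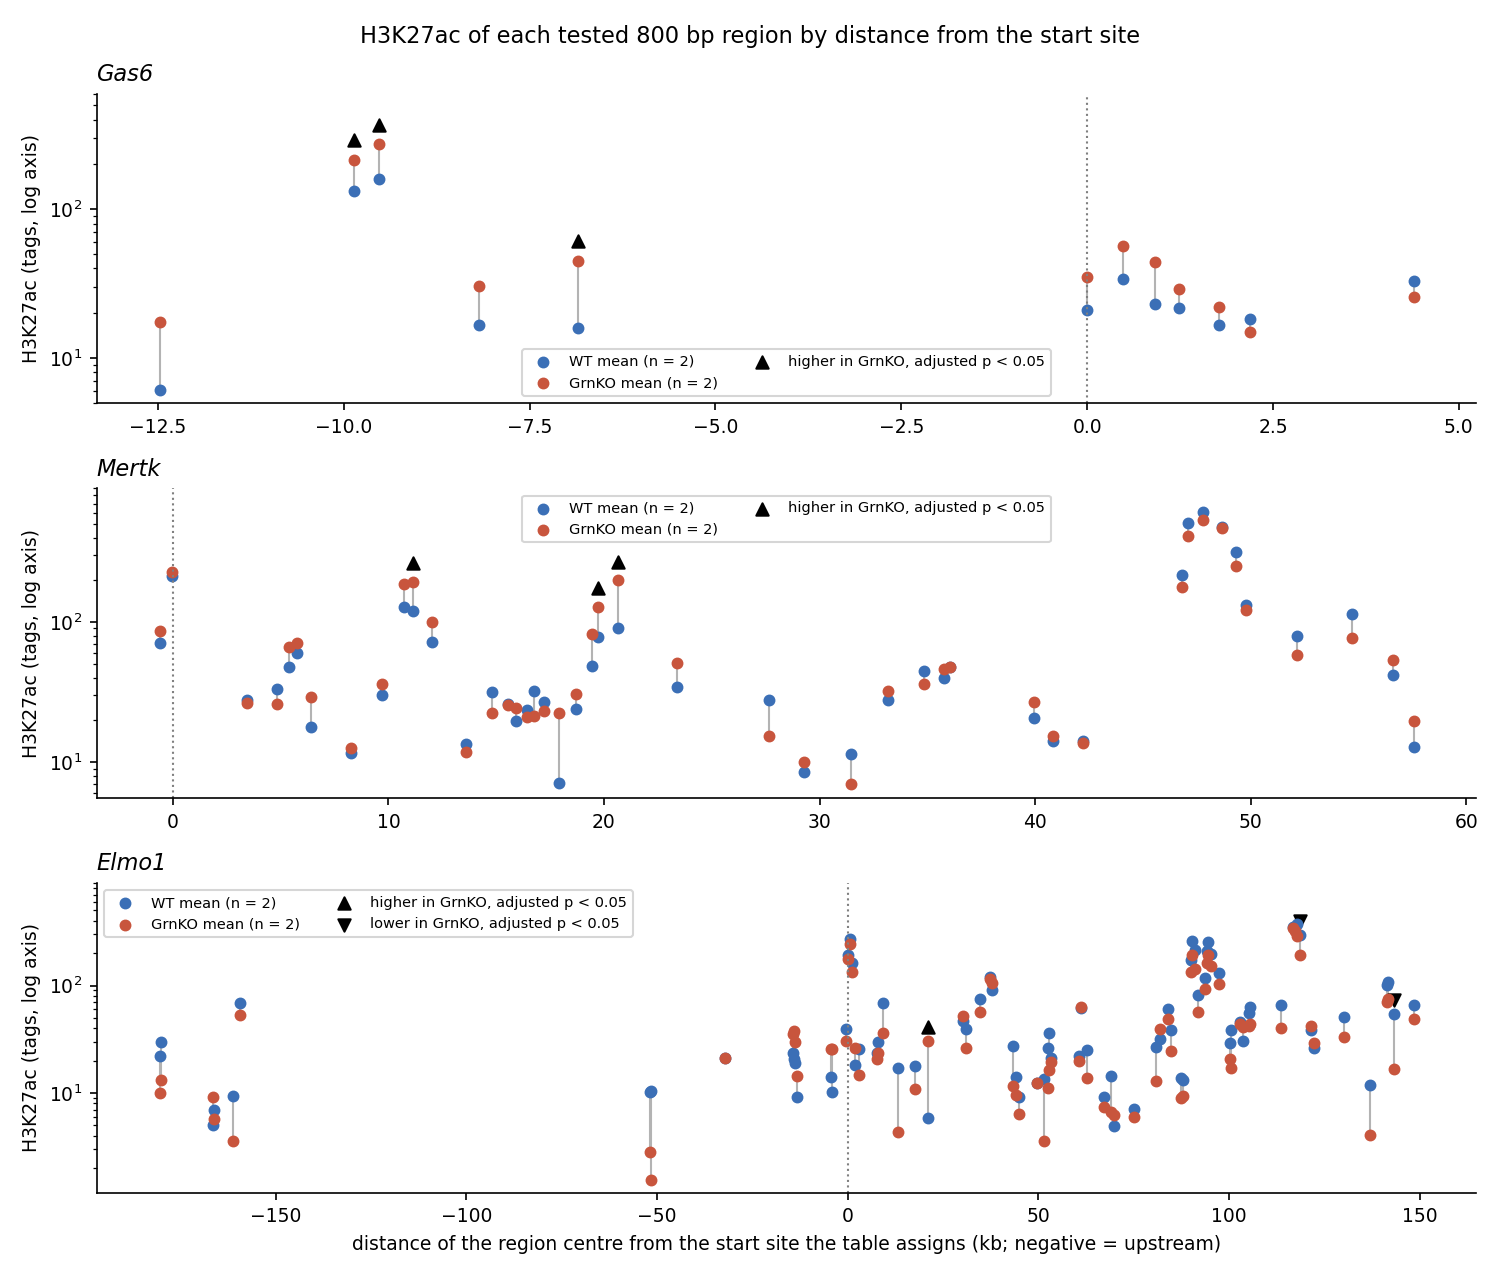
Mean H3K27ac (TMM-scaled tags, log axis) of each tested region of Gas6, Mertk and Elmo1 against the distance of its centre from the start site the table assigns, in kb; blue is WT and red GrnKO, each the mean of 2 libraries, and triangles mark regions past the threshold. Distances of some Elmo1 regions are from the second, downstream start, so their negative values lie inside the gene; the 3 marked Gas6 regions all lie upstream and the 3 marked Mertk regions all lie within the first 21 kb or so of the gene.

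Pros1, which encodes protein S, the other TAM ligand and a plasma anticoagulant, did not differ past the threshold. Its 10 regions summed to 486 and 550.5 tags in WT and to 518 and 515 in GrnKO. Both GrnKO values lay between the WT values (log2 change -0.0013, SE 0.14, limma adjusted p = 0.997), but the sign of this value turned with the authors' scaling (0.19). At the start site Pros1 had 124 and 128 tags in WT and 101 and 102 in GrnKO (log2 change -0.31, SE 0.20, limma adjusted p = 0.394). The strongest Pros1 region over the 4 libraries, though not in WT alone, 2.8 kb after the start in intron 1 of 14 in an LTR element, held 80.2 and 139 tags in WT and 119 and 133 in GrnKO (log2 change 0.26, SE 0.24, limma adjusted p = 0.577). It was higher past the threshold without WT replicate 2 (0.67, limma adjusted p = 0.0364) and turned to -0.13 without WT replicate 1. Intron 1 carried 66.7% to 69.4% of the tags of Pros1 in all 4 libraries. Of its 7 tested regions, 3 had a positive and 4 a negative change, and none passed.

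Mertk, the TAM receptor with the most H3K27ac among its 45 regions, did not differ past the threshold in its total, while 3 regions within it rose. The sums were 4012 and 3993 tags in WT and 4023 and 4386 in GrnKO, which did not overlap (log2 change 0.070, SE 0.083, limma adjusted p = 0.664). All 45 regions were tested, and 3 rose (6.67%, against 6.8% of all tested regions) and none fell, so the count itself is at the background. Of the others, 23 had a positive and 19 a negative log2 change.

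The 3 Mertk regions that rose lie in intron 1 of 18. The region 20.6 kb after the start (chr2:128719148-128719948) held 66.9 and 116 tags in WT and 202 and 194 in GrnKO. The fitted value was 2.24 times as high in GrnKO (a log2 change of 1.16 with SE 0.23, limma adjusted p = 0.00346), and the call held in every alternative run on it, with log2 changes of 0.78 to 1.58. In the authors' scaling the input of WT replicate 1 held 53.95 tags here, from 22 tags in the shallowest library, next to 55.2 tags in the H3K27ac library of the same pool; the other 3 inputs held 0, 3.12 and 0. The region 11.1 kb after the start held 134 and 108 tags in WT and 218 and 171 in GrnKO (log2 change 0.68, SE 0.20, limma adjusted p = 0.0356). The region at 19.7 kb held 76.6 and 79.1 tags in WT and 140.01 and 117 in GrnKO (log2 change 0.71, SE 0.22, limma adjusted p = 0.0478). The calls at 11.1 and 19.7 kb were lost without GrnKO replicate 1 (limma adjusted p = 0.559 and 0.576) and without GrnKO replicate 2 (0.0791 and 0.193), and the call at 19.7 kb also with edgeR (adjusted p = 0.0562) and DESeq2 (adjusted p = 0.0557) on the recovered reads and with no filter on low tags (limma adjusted p = 0.0531).

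Over all 25 regions of intron 1, Mertk held 999 and 1062 tags in WT and 1534 and 1380 in GrnKO. Both GrnKO libraries lay above both WT libraries, and the share of intron 1 in the tags of Mertk was 24.9% and 26.6% in WT and 38.1% and 31.5% in GrnKO. Intron 4 of 18 held most of the signal of the gene in WT, with 2370 and 2180.5 tags, against 1820.5 and 2276 in GrnKO, which overlap. Its strongest region, 47.8 kb after the start (chr2:128746303-128747103), held 688 and 528 tags in WT and 499 and 573 in GrnKO (log2 change -0.17, SE 0.13, limma adjusted p = 0.468), while with the authors' scaling the sign turned (0.052). Without WT replicate 2 it was lower past the threshold (-0.34, limma adjusted p = 0.0356), and without WT replicate 1 the change was 0.023. The start site region of Mertk had 222 and 205 tags in WT and 197 and 254 in GrnKO (log2 change 0.070, SE 0.17, limma adjusted p = 0.855). These sums by intron are descriptions and were not tested.

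Axl, the receptor with the highest affinity for GAS6 in the TAM family, was higher in both GrnKO libraries but did not pass the threshold. Its 8 regions summed to 337 and 313 tags in WT and 462 and 431 in GrnKO. The groups did not overlap, and the fitted value was 1.37 times as high (log2 change 0.46, SE 0.15, limma adjusted p = 0.0506). The value stood at the edge of the threshold: over the alternatives run on this sum the adjusted p ranged from 0.0122 (without WT replicate 1) to 0.453 (without GrnKO replicate 1). Of the 8 Axl regions, 7 had a positive change, and none passed.

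The strongest Axl region, in intron 1 of 19 and 1.1 kb after the start, held 70.8 and 74.1 tags in WT and 129 and 108 in GrnKO (log2 change 0.70, SE 0.23, limma adjusted p = 0.0574). It passed with the authors' scaling (limma adjusted p = 0.0444), a pseudocount of 5 (0.0481), and without WT replicate 1 (0.0368) or WT replicate 2 (0.022). The promoter region held 57.5 and 57.1 tags in WT and 89.7 and 75.7 in GrnKO (log2 change 0.52, SE 0.25, limma adjusted p = 0.225). Both regions had GrnKO above WT in every library. The region furthest into the gene, in intron 6, went the other way, with 56.3 and 65.5 tags in WT and 51.2 and 48.2 in GrnKO (log2 change -0.28, limma adjusted p = 0.592).

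**Figure D3:**
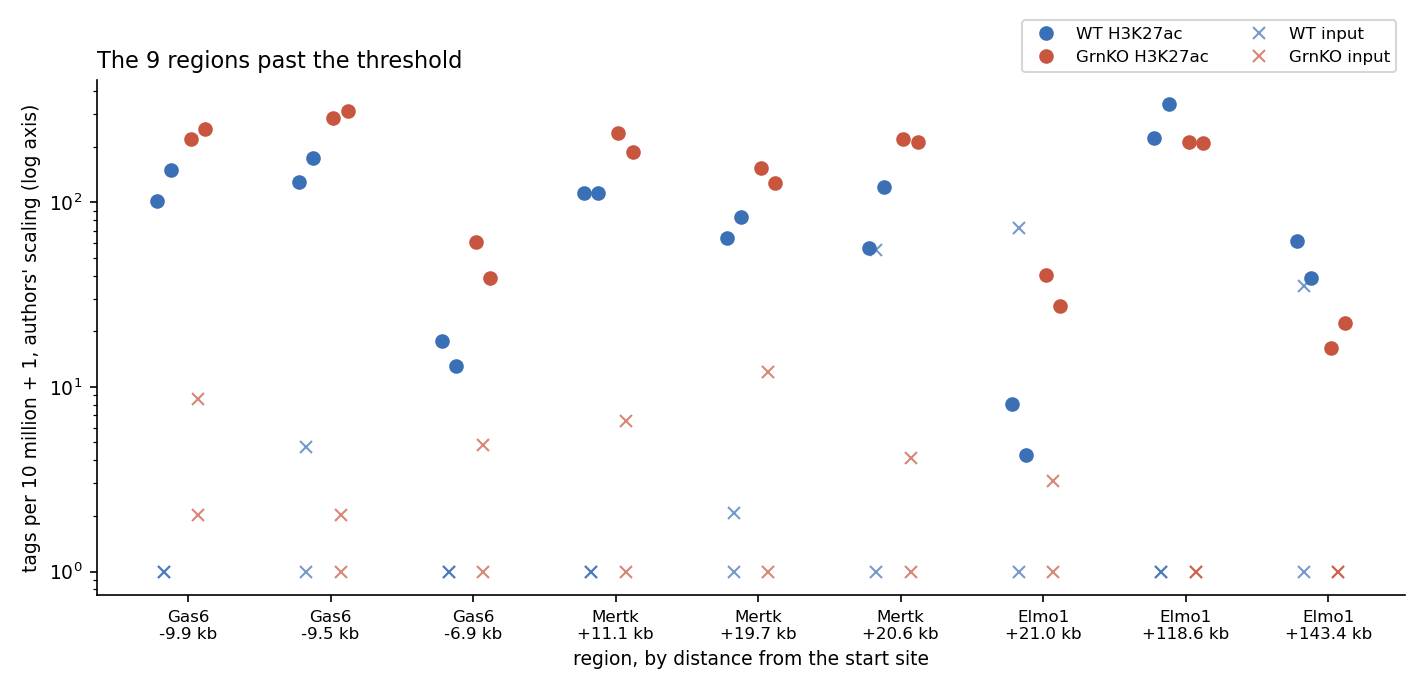
The 9 regions past the threshold by library, in the authors' scaling plus 1 on a log axis; circles are H3K27ac libraries and crosses input libraries, blue for WT and red for GrnKO. One WT input cross lies above both WT circles at Elmo1 +20.97 kb (71.1 tags) and just under the lower WT circle at Mertk +20.6 kb (53.95 tags) and Elmo1 +143.4 kb (34.3 tags), and the inputs at the other 6 regions stay at or under 11.1 tags.

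Msr1, the class A scavenger receptor for modified lipoproteins, did not differ past the threshold. Its 17 regions summed to 741 and 626 tags in WT and 650 and 598 in GrnKO, which overlap (log2 change -0.13, SE 0.13, limma adjusted p = 0.612); with the authors' scaling the sign turned (0.062). The strongest Msr1 region, in an exon 22.7 kb after the start, held 161 and 119 tags in WT and 119 and 126 in GrnKO (log2 change -0.18, SE 0.21, limma adjusted p = 0.655); its sign also turned with the authors' scaling (0.043). The start region was weak, at 28.5 and 26.98 tags in WT and 18.4 and 20.99 in GrnKO (log2 change -0.48, SE 0.41, limma adjusted p = 0.523). Of the 12 Msr1 regions tested, 9 had a negative and 3 a positive change, with a median of -0.059. In 1 of them, 23.005 kb after the start, the input of WT replicate 1 held 117.7 tags.

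Stab1, a scavenger receptor of tissue macrophages that clears phosphatidylserine-bearing cells, had 194 and 198 tags per region in WT and 202 and 209 in GrnKO, the most of the 7 genes when every region the table gives to it is counted. Its sums of 2322 and 2373 tags in WT and 2419 and 2513 in GrnKO did not overlap and did not pass (log2 change 0.071, SE 0.091, limma adjusted p = 0.686). None of its 12 regions passed. Of these, 5 lie inside the neighbouring gene Nisch (chr14:31170928-31206826), among them the strongest, 14.45 kb upstream of the Stab1 start. That region held 519 and 539 tags in WT and 515 and 556 in GrnKO (log2 change 0.016, SE 0.12, limma adjusted p = 0.956). Without the 5 regions Stab1 held 668 and 742 tags in WT and 731 and 708 in GrnKO (log2 change 0.03, limma adjusted p = 0.915), a setting chosen after the positions were seen. That is 95.4 and 106 tags per region in WT and 104 and 101 in GrnKO, beside 88.7 to 97.5 in the 4 libraries at Mertk. The Stab1 start region held 248.7 and 308 tags in WT and 221 and 261 in GrnKO (log2 change -0.21, SE 0.16, limma adjusted p = 0.485; 0.020 with the authors' scaling).

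Elmo1, the adaptor that acts with DOCK proteins in engulfment, had the lower sum in GrnKO. Its 107 regions summed to 5759 and 5821 tags in WT and 4644 and 5009 in GrnKO. Both GrnKO libraries lay below both WT libraries, and the fitted value was 0.833 times that of WT (log2 change -0.26, SE 0.08, limma adjusted p = 0.0355). With the authors' scaling the change was -0.074 (limma adjusted p = 0.924), which is -0.25 relative to the median of all genes under that scaling (0.18). The call was also lost with no filter on low tags (limma adjusted p = 0.107), without GrnKO replicate 1 (0.605) and without GrnKO replicate 2 (0.198).

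Of the 81 tested regions of Elmo1, 61 had a negative and 20 a positive change, with a median of -0.37, and in 38 both GrnKO libraries lay below both WT libraries (46.9%, against 25.6% of all tested regions) against 9 above (11.1%, against 27%). Of the 107 Elmo1 regions, 56 overlapped another and share reads with it. Past the threshold 2 regions fell (2.47%, against 2.92% of all tested regions) and 1 rose (1.23%, against 6.8%), so the lower calls are at the background share. A region in intron 3 of 21, 118.6 kb after the start (chr13:20208677-20209477), held 267 and 329 tags in WT and 196 and 193 in GrnKO (log2 change -0.61, SE 0.16, limma adjusted p = 0.0217). This call was lost with the authors' scaling (limma adjusted p = 0.471), with no filter (0.0761), and without WT replicate 2 (0.0711), GrnKO replicate 1 (0.223) or GrnKO replicate 2 (0.199). A weaker region in intron 4, 143.4 kb after the start (chr13:20233477-20234277), held 73.1 and 36.7 tags in WT and 14.1 and 19.6 in GrnKO (log2 change -1.58, SE 0.40, limma adjusted p = 0.018). It lost its call without WT replicate 1 (0.0801) or GrnKO replicate 1 (0.151). The input of WT replicate 1 held 34.3 tags there in the authors' scaling, next to 60.4 tags in its H3K27ac library, and the other inputs held 0.

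The region of Elmo1 that rose lies 20.97 kb after the first start, in intron 1 and in an LTR element of the ORR1F family (chr13:20111072-20111872), and was near the limit of detection in WT. It held 8.60 and 3.14 tags in WT and 36.2 and 24.5 in GrnKO (log2 change 2.29, SE 0.58, limma adjusted p = 0.017). Over the fits that left out 1 library the log2 change ran from 1.70 to 2.92. The input of WT replicate 1 held 71.1 tags there, more than any H3K27ac library, from 29 tags, while the other inputs held 0, 2.08 and 0. The call was lost without GrnKO replicate 1 (limma adjusted p = 0.401) or GrnKO replicate 2 (0.104). Across the 177 tested regions an input exceeded 30 scaled tags in 11, and in 8 of these it was the input of WT replicate 1; what these reads are was not tested.

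By part of the gene, the 39 regions of Elmo1 intron 1 held 2416 and 2422 tags in WT and 1862 and 2062 in GrnKO. The 11 regions of intron 2 held 1332 and 1343 tags in WT and 1170.2 and 1205 in GrnKO, and the 8 regions of intron 4 held 465 and 434 against 297 and 351. In all 3 introns both GrnKO libraries lay below both WT libraries. The 8 regions labelled intron 16 went the other way, with 96.3 and 96.4 tags in WT and 200.01 and 143 in GrnKO. All 6 of them that were tested had a positive log2 change, with a median of 0.78, against 14 of the 75 other tested regions of Elmo1, and none of the 6 passed. Intron 16 was not among the planned comparisons, so this count adds nothing to its sum. The intron 16 regions lie upstream of the second start, which begins the shorter transcript. The 14 regions labelled intron 1 of 6 of that transcript held 104.7 and 124 tags in WT and 79.8 and 93.8 in GrnKO. There both GrnKO libraries lay below both WT libraries, and those of them that were tested are among the 75 others. The strongest Elmo1 region, 116.8 kb after the first start in intron 2, held 323 and 372 tags in WT and 341 and 344 in GrnKO (log2 change -0.020, SE 0.14, limma adjusted p = 0.953; 0.21 with the authors' scaling). The first start region held 199 and 187 tags in WT and 161 and 189 in GrnKO (log2 change -0.14, SE 0.17, limma adjusted p = 0.683; 0.083 with the authors' scaling).

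The genes whose sums followed Gas6 and Elmo1 most closely were found as those with the smallest Euclidean distance of centred log2 values over the 4 H3K27ac libraries. For Gas6 these were Gnat3 (distance 0.0364), Zranb3 (0.0371) and Pigq (0.0412). Gnat3 held 87.1 and 109 tags in WT and 176 and 155 in GrnKO, so it shares with Gas6 a lower WT replicate 1 and a higher GrnKO replicate 1. For Elmo1 they included Lamtor4 (0.0144) and Tcf21 (0.0252). Lamtor4, a subunit of the lysosomal Ragulator complex, held 1006 and 1018 tags in WT and 809 and 884 in GrnKO. With 4 libraries, and all genes tested to choose from, such distances describe these libraries only.

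The other genes of the pathway were read on the same sums, from 4 lists with 60 genes in all, of which 56 were in the table and 50 were tested. In GrnKO 7 rose, 1 fell and 42 did not pass, and their median log2 change was 0.014 against -0.0099 over all genes tested. Over all genes tested 9.54% were higher and 4.88% lower, and the lists were chosen with earlier results known, so the counts are a description. The genes that rose are named below by list.

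Of 8 TAM receptor partners, 7 were tested and 1 rose. Lgals3, which encodes galectin-3, a lectin that also binds MERTK, held 1013 and 1196 tags in WT and 2022 and 2148 in GrnKO (log2 change 0.92, SE 0.11, limma adjusted p = 4.41e-05). Both GrnKO libraries stood far above WT. Adam10 and Adam17, proteases that shed these receptors, had log2 changes of -0.31 (limma adjusted p = 0.0996) and 0.091 (0.645). Tyro3, the remaining TAM receptor, had at most 4.20 tags over its 4 regions in any library and was not tested.

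Of 21 other receptors and bridging proteins for apoptotic cells, 15 were tested, 2 rose and none fell. Cd300lf, an inhibitory receptor that binds phosphatidylserine, held 414 and 385 tags in WT and 916 and 1009 in GrnKO (log2 change 1.27, SE 0.13, limma adjusted p = 1.05e-05). Lrp1, a large endocytic receptor, held 5970 and 6456 tags in WT and 7524 and 8027 in GrnKO (log2 change 0.32, SE 0.08, limma adjusted p = 0.00997). Both had no overlap between the genotypes. Mfge8, the bridging protein that links phosphatidylserine to integrins, had 0 and 0 tags in WT and 8.03 and 0.70 in GrnKO and was not tested. Among genes that did not pass, log2 changes were -0.49 for Thbs1 (SE 0.16, limma adjusted p = 0.0549) and -0.79 for Calr (SE 0.30, 0.102). They were 0.30 for Trem2 (SE 0.13, limma adjusted p = 0.149), 0.24 for Cd300a (SE 0.12, 0.222) and -0.64 for Timd4 (SE 0.33, 0.24).

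Of 14 other scavenger receptors, 12 were tested, 3 rose and none fell. Cd68, the lysosomal scavenger receptor of macrophages, held 697 and 746 tags in WT and 1323 and 1235 in GrnKO (log2 change 0.83, SE 0.11, limma adjusted p = 0.000169). Cd5l, a secreted scavenger protein of macrophages, held 166 and 132 tags in WT and 377 and 341 in GrnKO (log2 change 1.27, SE 0.18, limma adjusted p = 0.000234). Colec12, a collectin with scavenger activity that is named because it completes the count of 3, held 52.7 and 55.1 tags in WT and 203 and 150.5 in GrnKO (log2 change 1.68, SE 0.25, limma adjusted p = 0.000304). All 3 were higher in both GrnKO libraries than in both WT libraries, while Msr1 and Stab1 above did not pass.

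Of 18 genes of the engulfment machinery, 16 were tested, 1 rose and 1 fell. Vav3, an exchange factor for small GTPases, held 144 and 120 tags in WT and 309 and 271 in GrnKO (log2 change 1.13, SE 0.19, limma adjusted p = 0.000861). Wasf2, a subunit of the WAVE complex that branches actin downstream of RAC1, held 3290 and 3404 tags in WT and 2713 and 2740.4 in GrnKO (log2 change -0.30, SE 0.09, limma adjusted p = 0.0313). With the authors' scaling, with no filter and without either GrnKO library no gene of these lists was lower past the threshold. Elmo2, a paralogue of Elmo1, had 1624 and 1834 tags in WT and 2204 and 1978 in GrnKO (log2 change 0.27, SE 0.10, limma adjusted p = 0.0962), and its partners Dock1 and Dock2 had log2 changes of 0.034 and -0.18 and did not pass.

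**Figure D4:**
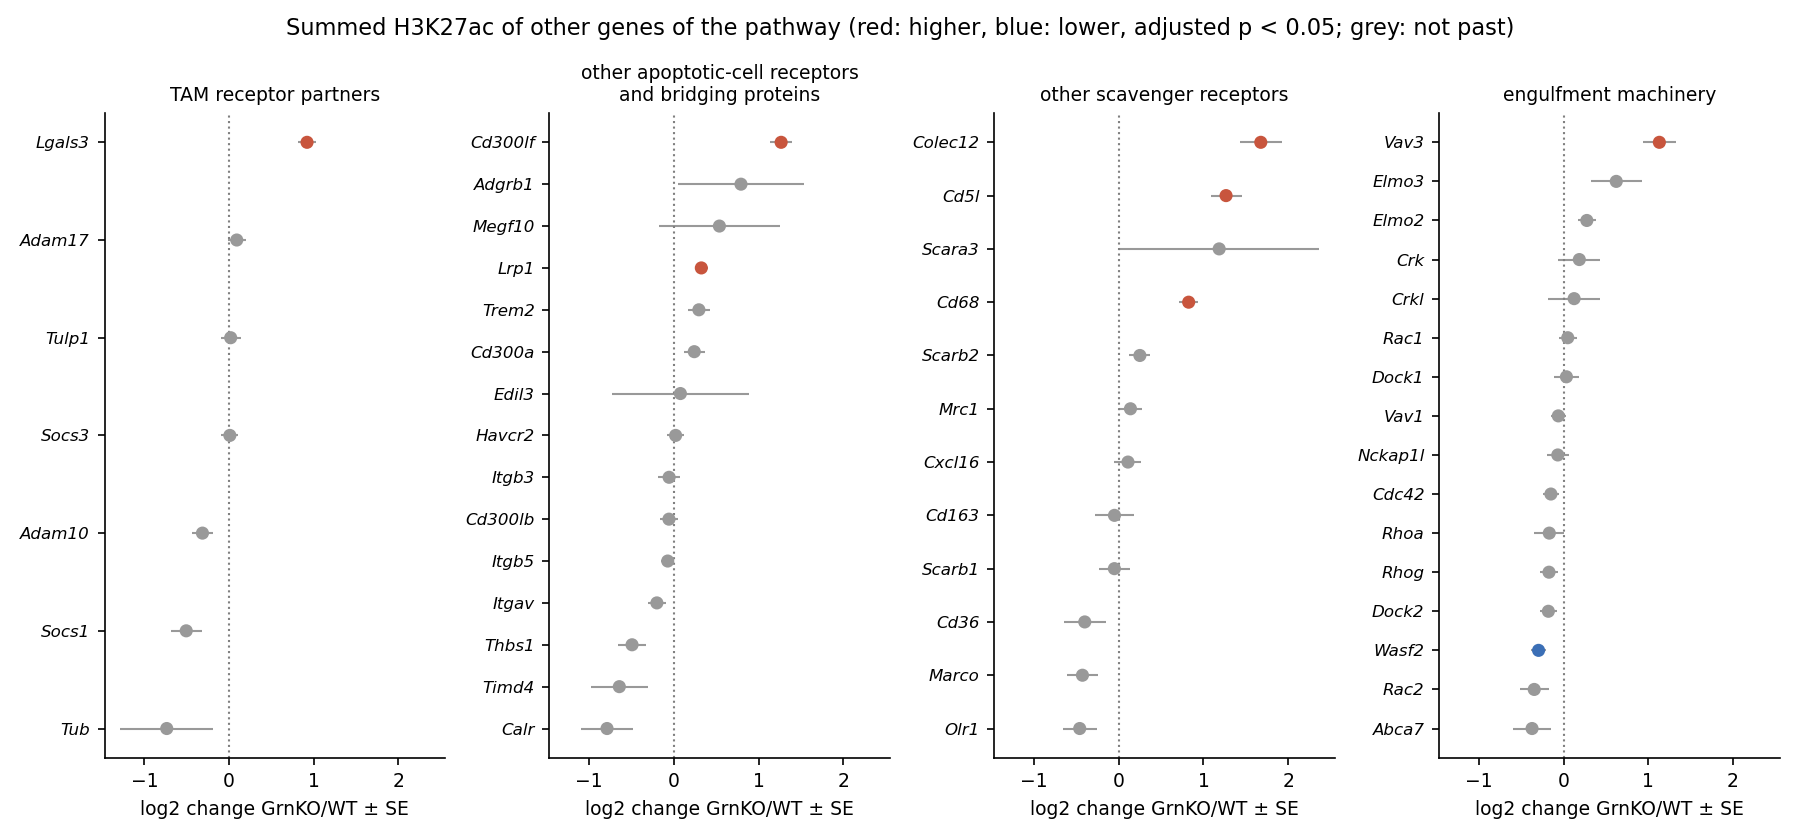
Log2 change of summed H3K27ac (GrnKO against WT, with its standard error, n = 2 per genotype) of the tested genes of the 4 lists; red points rose, the blue point fell and grey points did not pass. The 7 red points lie between 0.32 (Lrp1) and 1.68 (Colec12), and Wasf2 is the blue point at -0.30.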

How the data were processed

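H3K27ac ChIP-seq and input libraries of sorted PU.1+ nuclei were compared between 2 WT and 2 GrnKO pools. The values used are a signal: per the file headers, the authors counted tags in 129304 regions of 800 bp and scaled them to 10000000 tags per library. The submitters' processing notes name mm10, Bowtie2, HOMER and DESeq2 without roles; the handling of duplicate reads is not given in the sources used here. Coordinates are as the deposited table gives them, and the start sites it implies coincide with GRCm38.p6 RefSeq starts for the promoters matched. Whole read ends, 2 per tag, were recovered for 100% of values in all 8 columns within 0.025 read ends, so the depth is known; 3 tags are taken as the floor. These values carry no molecular identifiers, so counts cover counting error only.

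Regions, and tags summed over all regions of a gene with overlapping regions counted in each, were scaled by TMM, kept with filterByExpr (minimum 10 tags) and fitted with limma 3.58.1 (lmFit, eBayes with trend; R 4.3.3, edgeR 4.0.16) on log2(value + 1), which understates the change of low values. The eBayes step draws the variance of each feature towards a trend over all features, so a p-value does not rest on the spread of that feature alone. Genotype was the only term, and p-values were adjusted by Benjamini-Hochberg over 80728 regions or 15380 genes at 0.05. The fits were tested on simulated data.

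All 7 members are named, with for each gene the region nearest its start, the strongest region and those past the threshold; for each list, up to 2 genes per direction with the smallest p; and the 3 genes most like Gas6 and Elmo1. The members and lists were chosen with earlier results of these data known. Alternatives were other scalings (DESeq2 1.42.0 size factors, the authors' alone), a pseudocount of 5, no filter, edgeR and DESeq2 on recovered reads (edgeR's quasi-likelihood test called 6925 regions and 2142 genes), a replicate block, each library left out, an adjusted p under 0.1, a 2-fold limit, non-overlapping regions and regions beyond 1000 bp of the start. Anxa1, Scarf1, Scara5 and Gulp1 were not analysed here. Some items that these rules would name are not reported here.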

Additional observations from a re-analysis of the deposited data

How the results depend on the processing

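The fit without a replicate block found 9 member regions (7 higher, 2 lower), 2 member genes (1 higher, 1 lower) and 8 list genes (7 higher, 1 lower). With the replicate number as a block, these were 16 regions (7 lower), 3 genes (2 higher) and, among list genes, 3 lower; Axl passed (log2 change 0.46, limma adjusted p = 0.025), as did its strongest region (limma adjusted p = 0.028). The numbers pair only 2 samples per genotype. The deviations of same-numbered samples correlated at 0.034 over tested regions and -0.093 over member regions. With 1 difference per genotype this cannot show whether same-numbered samples shared a preparation, which was not tested. Over all tested regions the block raised the number called from 7842 to 11391. With an adjusted p under 0.1 there were 16 regions (11 higher, 5 lower), and at 2-fold 4 (3 higher, 1 lower). The authors' scaling moved the median of all regions to 0.22 and of all genes to 0.18, which its construction shows, and raised the share of called regions that were higher from 70.0% to 95.2% (genes 66.2% to 90.8%). It left 1 lower region, 1 member gene, 0 lower member genes and 0 lower list genes; Elmo1 was -0.074 there. No filter left 1 lower region, 2 higher and 0 lower member genes and 0 lower list genes, and Elmo1 at -0.25. Higher member genes were 2 with a pseudocount of 5, where Axl was 0.45 (limma adjusted p = 0.0469), and 2 with DESeq2, where Axl was 0.45 (adjusted p = 0.0334) and 2 list genes were lower; with no filter Axl was 0.47 (limma adjusted p = 0.0438). For these settings the cause was not tested. Signs turned, with no call, for Pros1 (0.19 with the authors' scaling, 0.011 with no filter, 0.070 over non-overlapping regions, 0.025 beyond 1000 bp of the start) and Msr1 (0.062 with the authors' scaling), and with the authors' scaling at the Mertk region of intron 4 (0.052), the strongest Msr1 region (0.043), the Stab1 start (0.020), the first Elmo1 start (0.083) and the strongest Elmo1 region (0.21; 0.022 with no filter). Leaving out each library in turn, where limma treats the lone library as varying like the other genotype, gave 1 to 32 regions (1 to 21 higher, 0 to 11 lower), 1 to 3 member genes (1 to 2 higher, 0 to 1 lower) and 6 to 15 list genes (6 to 11 higher, 0 to 4 lower). In these fits log2 changes ran from 0.41 to 0.51 for Axl, from -0.088 to 0.11 for Pros1 and from -0.31 to -0.20 for Elmo1. They ran from -0.099 to 0.27 at the Mertk start, from -0.34 to 0.023 at the Mertk region of intron 4, from -0.13 to 0.67 at the strongest Pros1 region, from -0.38 to 0.042 at the strongest Msr1 region, from -0.027 to 0.088 at the strongest Stab1 region and from -0.12 to 0.11 at the strongest Elmo1 region. Of 451 values computed under alternatives, 344 kept their direction and side of the threshold or moved within the limit set for counts. Depth limits the weak regions: 35 of the 212 had too few tags to test, and inputs were shallow.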
